A study of Homo sapiens with 12 samples.

Results

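The 6 genes described here, TWIST1, TWIST2, SNAI1, SNAI2, ZEB1 and ZEB2, encode the core transcription factors of the epithelial-mesenchymal transition (EMT). They were followed across 6 lists of chromatin regions enriched for histone H3.1 or histone H3.3. Every region that overlapped the gene body or the 2 kb on either side was taken, which gave 17 of the 161480 regions in all lists. The lists came from ChIP-seq (sequencing of immunoprecipitated chromatin) in MCF10AER/vSrc cells, a derivative of the non-tumorigenic human mammary epithelial line MCF10A that carries an inducible v-Src, the oncoprotein joined to part of the estrogen receptor. All samples carry this construct and the genotype label WT, and the labels do not say whether v-Src was switched on. For each histone there was 1 ChIP library with 1 input library from control cells, from cells 4 h after D-alanine and from cells 24 h after D-alanine, which makes 6 ChIP and 6 input libraries. D-alanine was labelled as 10 nM and, per the series design, served to produce reactive oxygen species inside the nucleus. No enzyme is named for this step. The first antigen is H3.1/H3.2 in the series design and is written as H3.1 below. ChIP depth was 16837079 to 19576955 tags. The region lists hold no expression values, so neither the epithelial state of the cells nor the activity of the 6 genes could be checked from them.

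As background, epithelial cells hold one another through E-cadherin junctions, and in EMT they give up these contacts and gain a motile, mesenchymal form. The factors of the SNAI and ZEB families are zinc finger repressors that bind E-box sequences in the promoters of E-cadherin and other junction genes, and the TWIST factors are basic helix-loop-helix proteins that bind E-boxes as dimers. The miR-200 microRNAs repress ZEB1 and ZEB2 and are themselves repressed by them. Histone H3.1 is placed in chromatin mainly during DNA replication, and H3.3 is placed throughout the cell cycle, often at active or remodelled sites.

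Promoter windows were at hand for TWIST2, ZEB1 and ZEB2 only. Among these, the ZEB1 promoter was the one place where a called region met a window. The H3.1 region called 24 h after D-alanine (chromosome 10, 31318642 to 31319142) overlapped 226 and 177 bases of 2 RefSeq start windows of ZEB1, each 250 bases before to 50 bases after a start. They are shown because they hold part of the DNA under that region. Each also reaches beyond it, and the bases between the 2 windows are not shown. Capitals mark every match to CANNTG, the E-box, a motif that reads the same on both strands.
ZEB1 window, GRCh38.p14, chr10:31318568-31318867, plus strand: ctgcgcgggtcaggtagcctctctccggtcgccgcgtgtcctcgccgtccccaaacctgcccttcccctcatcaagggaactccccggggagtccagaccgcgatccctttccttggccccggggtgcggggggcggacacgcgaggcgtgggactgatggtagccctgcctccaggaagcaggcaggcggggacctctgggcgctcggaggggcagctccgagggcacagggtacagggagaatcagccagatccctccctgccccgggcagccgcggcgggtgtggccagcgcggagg
ZEB1 window, GRCh38.p14, chr10:31318966-31319265, plus strand: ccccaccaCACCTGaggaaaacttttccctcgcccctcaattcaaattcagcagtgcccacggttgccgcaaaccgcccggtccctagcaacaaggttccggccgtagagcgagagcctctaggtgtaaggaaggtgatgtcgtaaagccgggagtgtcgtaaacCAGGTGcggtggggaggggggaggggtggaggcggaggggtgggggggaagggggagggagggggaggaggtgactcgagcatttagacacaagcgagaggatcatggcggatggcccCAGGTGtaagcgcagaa

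The first window held no E-box and was 72% G and C. The second held 3, and all 3 were CACCTG or its reverse complement CAGGTG, the form of the E-box to which SNAI and ZEB factors bind. Counted from 1 at the window's 5′ end they began at positions 9, 166 and 284, and the first 2 of them lay inside the called region. Over 35116 RefSeq windows of the same length, 68.7% held at least 1 CANNTG and 20.6% at least 1 CACCTG or CAGGTG, which is a subset of CANNTG. At least 3 of the latter were found in 0.635% of windows. ZEB1 has 7 start windows in this table, of which 4 held an E-box. The single ZEB2 window held 1 E-box, CACATG, and the single TWIST2 window held none. No window for TWIST1, SNAI1 or SNAI2 was used here. These matches describe letters and do not show that a factor was bound.

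**Figure D1:**
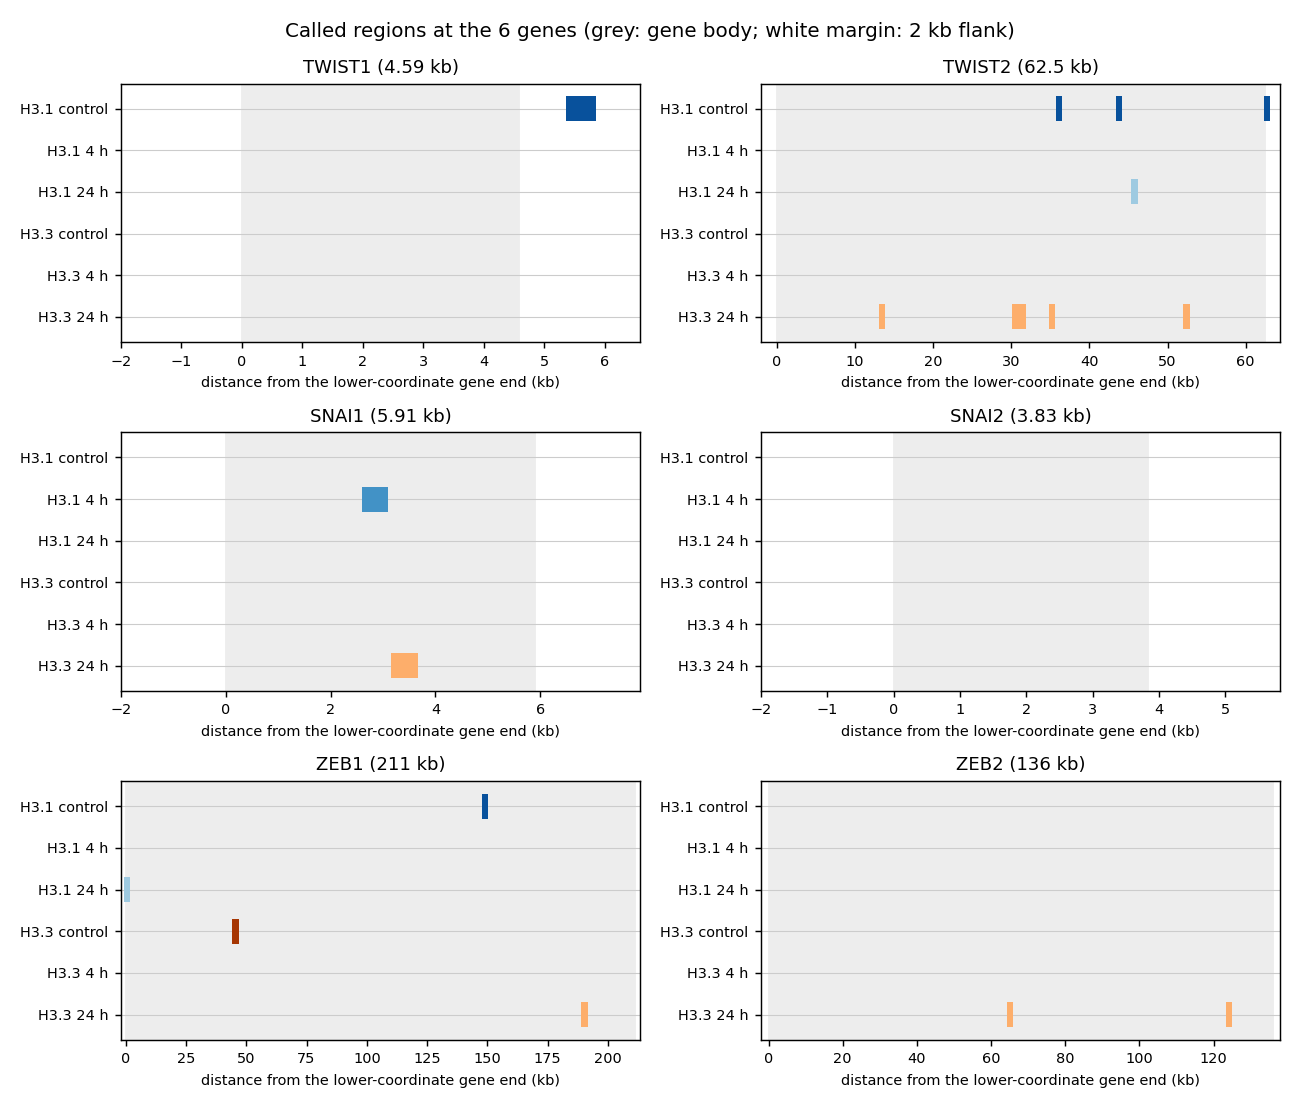
Map of the called regions at each of the 6 genes, 1 row per list. The x axis is the distance in kb from the lower-coordinate gene end, grey is the gene body, white margins are the 2 kb flanks, and bars are regions (regions narrower than about 1.2% of the axis are drawn at that width). TWIST2 holds 8 of the 17 regions, SNAI2 holds none, and no bar of one list overlaps a bar of another, against 26.5% of regions at all protein-coding genes that overlap a region of another list.

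TWIST2, a repressor related to TWIST1 that was first studied in dermis and bone, had the most regions of the 6 genes. Its 62.5 kb body (chromosome 2, 238848085 to 238910534, plus strand) and flanks held 3 H3.1 regions before D-alanine, none 4 h after it and 1 region 24 h after it. For H3.3 the control and 4 h lists had none there and the 24 h list had 4. Of its 8 regions, 7 lay inside the gene and 1 began 22 bp beyond its 3′ end.

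The H3.1 control regions at TWIST2 began at 238883917, 238891670 and 238910556, and each was 500 bp wide. The first held 10.2 normalised tags, meaning tags in the region per 10000000 tags sequenced, from 19 ChIP tags against 2 input tags. Its fold over input was 8.05 (exact 95% interval 1.94 to 71.3). The other 2 each held 16 ChIP tags against 3 input tags, with a fold of 4.52 (1.29 to 24.2), close to the fold of 4 that the authors required. The H3.1 region at 24 h (238893616 to 238894116) held 22 ChIP tags and 5 input tags, at a fold of 4.74 (1.75 to 16). It lay 1446 bp from the nearest control region and overlapped none of them. Of all 27378 H3.1 control regions in protein-coding gene windows, 2.25% overlapped an H3.1 region at 24 h, so most control regions had no such partner.

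The H3.3 regions at TWIST2 at 24 h lay 13.5, 31, 35.2 and 52.4 kb from the transcription start. The second of them (238878150 to 238879973) was 1823 bp wide, the widest of the 17 regions, and held 52 ChIP tags against 4 input tags. Its fold was 11 (4.05 to 41.9). In its list, 1.31% of regions were as wide and 2.56% held as many normalised tags. As high a fold was found in 37.2% of that list, and as high a HOMER region score in 41.9%. The fourth (238900192 to 238900825) held 21 ChIP tags and no input tag. The exact 95% interval of its fold begins at 4.41 and has no upper end, and the authors' value of 35.5 rests on 0.5 in place of 0. The regions at 13.5 and 35.2 kb had folds of 8.46 (2.06 to 74.7) and 4.23 (1.2 to 22.8), the last being the lowest fold of all 17 regions. No H3.3 region at TWIST2 was called in control cells or at 4 h, where the nearest lay 75.5 kb and 171 kb away.

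TWIST1, the basic helix-loop-helix factor of mesoderm and cranial bone, had 1 region, in the H3.1 control list. Its body is 4.59 kb long (chromosome 7, 19113047 to 19117636). The region (19118404 to 19118904) began 768 bp beyond the higher-coordinate end. The gene table used here gives no strand, and in common annotation this is the side of the transcription start. It held 13.9 normalised tags from 26 ChIP tags against 4 input tags, at a fold of 5.51 (1.91 to 21.7). Its HOMER region score of 27 was reached by 1.7% of that list, the highest standing by score among the 17 regions. Its normalised tags were reached by 15.9% of that list and its fold by 65.2%, so the fold was below the list median of 6.21. HOMER scores are not adjusted for depth or input. Regions of this list on chromosome 7 held 3.12 input tags on average, against 2.56 over all chromosomes, and the part of this in the score was not tested.

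No other list had a region at TWIST1. The nearest H3.3 region at 24 h lay 5.21 kb from the gene body, inside the neighbouring non-coding gene LOC124901597, with a fold of 4.11 (1.79 to 11). The nearest H3.1 region at 24 h was 32.7 kb away. The nearest H3.1 region at 4 h and the nearest H3.3 region in control cells were 289 and 375 kb away and lay in HDAC9, the neighbouring deacetylase gene in which TWIST1 enhancers have been described. The nearest H3.3 region at 4 h was 1725 kb away.

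SNAI1 (Snail), the zinc finger repressor of E-cadherin, had 1 H3.1 region at 4 h and 1 H3.3 region at 24 h, both inside its 5.91 kb body (chromosome 20, 49982980 to 49988886). The H3.1 region at 4 h (49985576 to 49986076) held 12.5 normalised tags from 22 ChIP tags against 4 input tags, which gave a fold of 5.2 (1.77 to 20.8). It was the only H3.1 region at any of the 6 genes at 4 h. The H3.3 region at 24 h (49986139 to 49986639) held 7.15 normalised tags from 14 ChIP tags against 1 input tag, at a fold of 11.9 (1.8 to 501). The 2 regions did not overlap and lay 63 bp apart. In control cells the nearest H3.1 region was 9.19 kb away and the nearest H3.3 region 68.5 kb away.

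SNAI2 (Slug), the related repressor that is also expressed in basal mammary cells, had no region in any of the 6 lists. Its body spans 3.83 kb (chromosome 8, 48917598 to 48921429). The nearest was an H3.3 region at 24 h, 6.47 kb away and inside the non-coding gene LOC107986942, at a fold of 5.93 (1.36 to 53.7). Another H3.3 region at 24 h lay 7.37 kb away, with 16 ChIP tags against 1 input tag and a fold of 13.5 (2.1 to 568). The nearest H3.1 region in control cells was 20.4 kb away, with 6.97 normalised tags. In the other 4 lists the nearest region lay 71.9 to 545 kb away. A gene without a region was not called under the authors' thresholds, and the histone may still be there. The tag threshold was 12 to 14 tags for a 500 bp peak, depending on the list. It is not an exact floor for the listed tags. The H3.1 control list, with a threshold of 13, holds a region 9.19 kb from SNAI1 with 12 ChIP tags.

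ZEB1, a zinc finger and homeodomain repressor, was called in 4 lists, more than any other of the 6 genes, with 1 region in each. Its body spans 211 kb (chromosome 10, 31318417 to 31529804, plus strand). The H3.1 region in control cells (31467201 to 31467701) lay 149 kb from the start and held 13 ChIP tags, the fewest of the 17, against 1 input tag, at a fold of 11 (1.66 to 468). The H3.1 region at 24 h was the promoter region whose DNA is printed in part above, centred 0.475 kb after the gene's first start. It held 34 ChIP tags against 7 input tags, at a fold of 5.23 (2.28 to 14). Its 20.2 normalised tags were reached by 6.33% of its list, whereas its fold was reached by 34.6% of it.

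The same DNA belongs to ZEB1-AS1, an antisense non-coding gene that runs across the ZEB1 start, so the region cannot be given to one of the 2 genes. The H3.3 region in control cells (31363667 to 31364302) lay 45.6 kb into ZEB1 and overlapped the pseudogene LOC100505502. It held 20 ChIP tags against 4 input tags, which gave a fold of 4.63 (1.55 to 18.6). At 24 h the H3.3 region (31508354 to 31509003) lay 190 kb into the gene and held 18 ChIP tags against 3 input tags, at a fold of 5.08 (1.48 to 26.9). The 4 positions are spread along the gene and share no base.

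ZEB2, the ZEB1 relative that also acts in neural crest, was called only in the H3.3 24 h list. Its body spans 136 kb (chromosome 2, 144384081 to 144520119, minus strand). The region nearer to the start (144507923 to 144508423) lay 11.9 kb into the gene and held 16 ChIP tags against 1 input tag, at a fold of 13.5 (2.1 to 568). The other (144448865 to 144449365) lay 71 kb into the gene and held 14 ChIP tags against 2 input tags, at a fold of 5.93 (1.36 to 53.7). In the other 5 lists the nearest region was 129 to 3905 kb away. The surroundings of ZEB2 held few regions as well. Within 500 kb on either side, the H3.1 control list had 1 region, or 0.088 per 100 kb (exact 95% Poisson interval 0.00223 to 0.49), against 1.48 per 100 kb over the chromosomes. The H3.3 24 h list had 8, or 0.704 per 100 kb (0.304 to 1.39), against 2.69.

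The surroundings of the other genes differed widely. Within 500 kb of TWIST2 there were 79 H3.1 control regions, or 7.44 per 100 kb (5.89 to 9.27), and 80 H3.3 regions at 24 h, or 7.53 (5.97 to 9.37). SNAI1 had 44 and 87 such regions, SNAI2 16 and 40, ZEB1 11 and 25, and TWIST1 4 and 23. TWIST1 thus had 0.398 H3.1 control regions per 100 kb (0.108 to 1.02) around it, with 1 of the 4 at the gene.

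**Figure D2:**
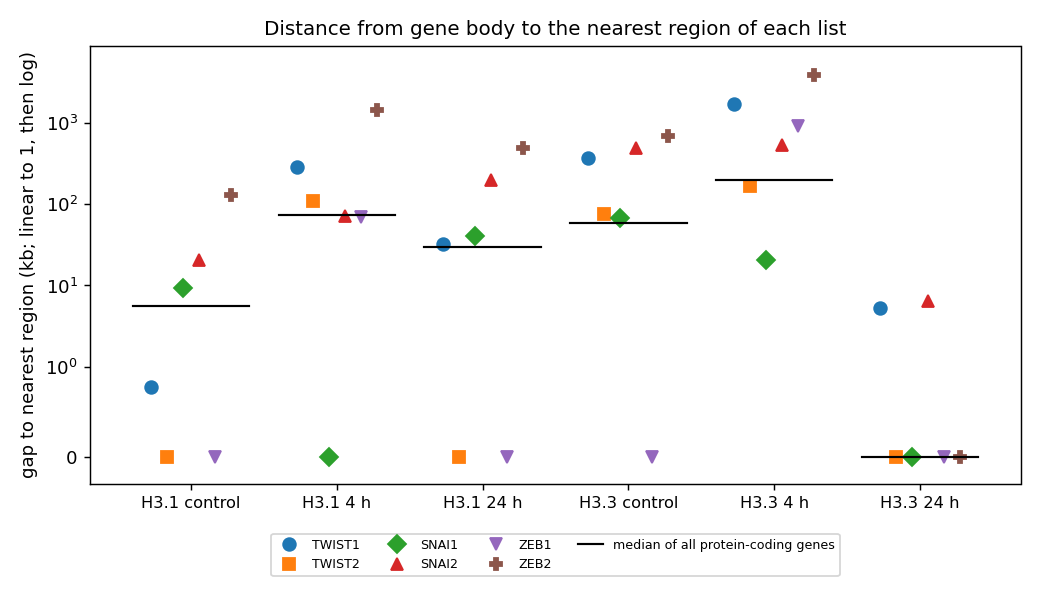
Gap in kb from each gene body to the nearest region of each list, linear up to 1 kb and logarithmic above, 1 symbol per gene. Black lines are the medians over all protein-coding genes, from 0 kb in the H3.3 24 h list to 201 kb in the H3.3 4 h list; ZEB2 has the widest gap of the 6 genes in every list except H3.3 24 h, where it is SNAI2.

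Set beside the rest of the genome, the 6 genes were called about as often as other genes. In control cells an H3.1 region was found at 3 of 6 genes (50%), against 44.3% of 19974 protein-coding genes. At 4 h 1 of 6 (16.7%) did, against 17.1%, and at 24 h 2 of 6 (33.3%), against 28.4%. For H3.3, 1 of 6 (16.7%) held a region in control cells, against 21.3%, 0 of 6 at 4 h, against 8.97%, and 4 of 6 (66.7%) at 24 h, against 60.2%. These shares lie near the background in each list and are no result about the 6 genes as a group. The number of genes called followed the length of the list, which ran from 3628 regions for H3.3 at 4 h to 81405 for H3.3 at 24 h. With every list held to its 3000 highest-scoring regions, the H3.1 control list met 1 of the 6 genes and the H3.3 24 h list none.

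Longer genes were called more often. TWIST1, SNAI1 and SNAI2 have windows under 12 kb, and 27.7% of the 4704 protein-coding genes of that size held an H3.1 control region and 36.2% an H3.3 region at 24 h. ZEB1 and ZEB2 have windows over 100 kb, where these shares were 61.9% and 84.5% of 3482 genes. TWIST2 falls between, with 45.7% and 62.5% of 11788 genes. The length classes were chosen after the data were seen.

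Counted per length, the windows of the 6 genes, 448 kb in all, held fewer regions than gene windows in general in each list. In control cells they held 5 H3.1 regions, or 1.12 per 100 kb (exact 95% Poisson interval 0.362 to 2.6), against 2.14 over all protein-coding genes. The H3.1 densities were 0.223 (0.00565 to 1.24) at 4 h against 0.381, and 0.446 (0.054 to 1.61) at 24 h against 0.722. The H3.3 density in control cells was 0.223 (0.00565 to 1.24) against 0.513. At 4 h there was no H3.3 region, against 0.164 over all genes. At 24 h there were 8, or 1.78 per 100 kb (0.771 to 3.52), against 3.64. Each interval except the last contains the value over all genes. The last contains the density of that list over the whole chromosomes, 2.69 per 100 kb, and with windows of 10 kb the density at the 6 genes was 2.76. ZEB1 and ZEB2 make up most of the 448 kb, so these densities describe those 2 genes more than the other 4, and the intervals cover counting error only. Taken singly, the genes lay on both sides of the value over all genes. In H3.1 control, TWIST1 had 11.6 per 100 kb (0.295 to 64.9), TWIST2 4.51 (0.931 to 13.2) and ZEB1 0.464 (0.0118 to 2.59). SNAI1, SNAI2 and ZEB2 had 0. In H3.3 24 h, SNAI1 had 10.1 (0.256 to 56.2), TWIST2 6.02 (1.64 to 15.4), ZEB2 1.43 (0.173 to 5.16) and ZEB1 0.464 (0.0118 to 2.59). TWIST1 and SNAI2 had 0 there.

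**Figure D3:**
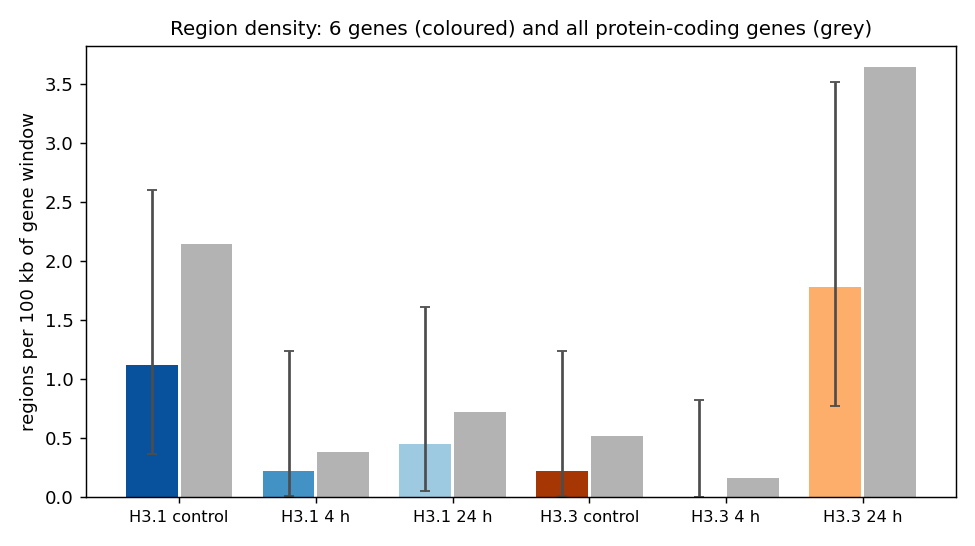
Regions per 100 kb of gene window (body and 2 kb either side) in each list, for the 6 genes (coloured bars, exact 95% Poisson intervals) and for all protein-coding genes (grey bars). The coloured bar is the lower one in all 6 lists, and only at H3.3 24 h does its interval, 0.771 to 3.52, end below the grey bar, 3.64; that interval contains the density over the whole chromosomes, 2.69, which is not drawn.

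Among the 17 regions the fold over input of the 16 with an input tag ran from 4.23 to 13.5, with a median of 5.37. ChIP tags per region ran from 13 to 52 and input tags from 0 to 7. Few tags make each fold imprecise, and the lower bound of the interval was above the required fold of 4 in 2 of 17 regions, both of them H3.3 regions of TWIST2 at 24 h. Summed over the regions of a list, the fold was 5.87 (3.26 to 11.4) for H3.1 control, from 90 ChIP and 13 input tags. It was 5.03 (2.66 to 10.3) for H3.1 24 h and 8.99 (5.38 to 16.1) for H3.3 24 h, from 170 ChIP and 16 input tags. These intervals overlap, and median folds over the whole lists were 6.21, 4.74 and 7.34 in the same order. Because regions were called on the same tags, all of these folds lie above 4 by construction.

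**Figure D4:**
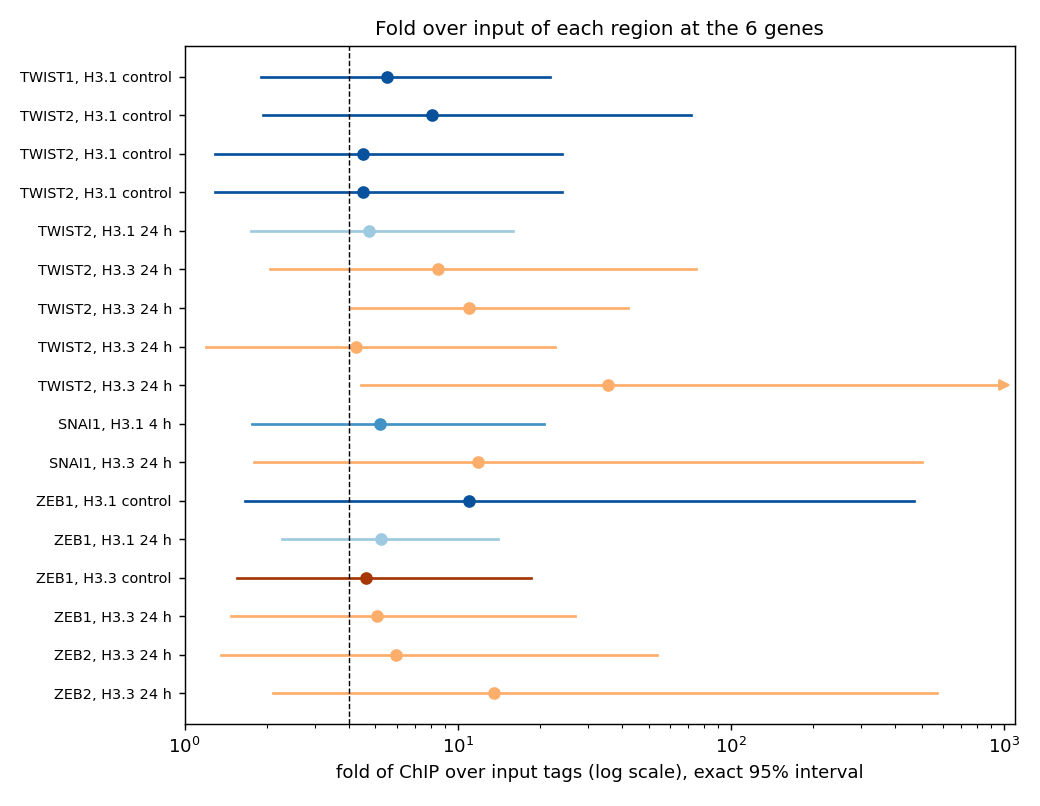
Fold of ChIP over input tags for each of the 17 regions at the 6 genes on a log axis, as the authors' value (dots) with its exact 95% interval (lines), coloured by list. The dashed line is the required fold of 4; the arrow marks the TWIST2 region with no input tag, whose interval has no upper end.

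The place of the regions within the genes was near the background. Of 17 regions, 15 (88.2%) overlapped the gene body, against 90.9% over all protein-coding gene windows, and the 2 at TWIST1 and TWIST2 in the H3.1 control list lay beyond the higher-coordinate end. Centres within 2 kb of a gene end were found in 3 regions (17.6%), these 2 and the ZEB1 promoter region, against 19.6% over all windows. No difference between the histones in this was tested. The width was 500 bp, the smallest the settings allow, in 11 regions. The outermost region taken lay 768 bp from its gene. Just outside the 2 kb limit were 3 regions beyond the 3′ end of TWIST2, at 3.2, 3.22 and 3.65 kb, and 1 H3.3 region at 24 h, 3.26 kb before the start of ZEB2, with 17 ChIP tags and no input tag. TWIST1 and SNAI2 followed, with the H3.3 regions at 5.21 and 6.47 kb.

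No region in the windows of these genes was called in 2 lists. There were 26 pairs of regions at the same gene from different lists, and in 0 of them did the 2 regions share a base. Over all 96734 regions in protein-coding gene windows, 26.5% overlapped a region of another list, with 38.2% for H3.1 control and 20.9% for H3.3 24 h, the lists that hold 13 of the 17 regions. The 0 of 17 lies below that share, but the regions come from 5 genes, the difference was not tested, and with windows of 10 kb 3 of 27 regions (11.1%) overlapped one of another list. In 2 pairs the centres lay within 1 kb of each other. These were the SNAI1 pair of H3.1 at 4 h and H3.3 at 24 h, with centres 563 bp apart, and a TWIST2 pair of H3.1 in control cells and H3.3 at 24 h, with centres 911 bp and edges 333 bp apart. The design asks whether H3.3 is found where H3.1 regions are no longer called. At TWIST2, where 3 H3.1 control regions had no overlapping counterpart at 24 h, none of the 4 H3.3 regions at 24 h overlapped them. Over all gene windows 33.4% of H3.1 control regions overlapped an H3.3 region at 24 h, and 3 regions at 1 gene are too few to be set against that share. A site that 3 lists shared lay just outside the window of TWIST2. There, the H3.1 control region (238913758 to 238915051) held 43 ChIP tags against 8 input tags and had a fold of 4.55 (2.12 to 11.2). It overlapped 476 bp of the H3.1 24 h region (238913734 to 238914234), which held 23 ChIP and 6 input tags and had a fold of 4.13 (1.63 to 12.4). It also overlapped 635 bp of an H3.3 24 h region (238914188 to 238914823) with 21 ChIP and 3 input tags and a fold of 5.93 (1.77 to 31). The H3.1 and H3.3 regions at 24 h overlapped each other by 46 bp. Among the regions up to 20 kb from the 6 genes, these were the ones that overlapped a region of another list. At TWIST1 the H3.1 control region had neither an H3.1 nor an H3.3 counterpart at 24 h.

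Among 975 protein-coding genes with a window within 25% of the length of ZEB1, GLG1, a Golgi glycoprotein gene, had the same number of regions in each of the 6 lists. A further 16 genes differed by 1 region in all, and of these MEIS2, a homeobox factor gene, and PLD1, a phospholipase gene, were the closest in length. For ZEB2, 53 of 1596 genes of like length (3.32%) had its pattern of 2 H3.3 regions at 24 h and none elsewhere. The closest in length were ZNF277, GAB1 and MON2. These likenesses rest on counts of 0 to 2 regions in 6 lists.

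Other genes of the EMT programme were taken from 5 lists of 100 genes in all, each of which had a place in the gene table. Together, the control, 4 h and 24 h lists of H3.1 met 41, 13 and 28 of them. For H3.3 the numbers were 29, 11 and 70 of 100. The shares over all protein-coding genes given above were 44.3%, 17.1%, 28.4%, 21.3%, 8.97% and 60.2% in the same order. They are also the background for the counts of each gene list below. The 100 genes include microRNA genes, which these shares leave out, and no allowance was made for gene length.

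Of 16 other EMT transcription factor genes, 5, 4 and 2 had H3.1 regions in the control, 4 h and 24 h lists, and 5, 3 and 7 had H3.3 regions. The same order of lists is used below. PRRX2, a homeobox gene of mesenchyme, had 8, 1 and 2 H3.1 regions and 1, 1 and 8 H3.3 regions. KLF8, a zinc finger repressor gene, had 2, 0 and 0 H3.1 regions and 1, 0 and 7 H3.3 regions. TCF3, which encodes the E2A partners of TWIST proteins, was called in every list, with 5, 3 and 3 H3.1 regions and 2, 1 and 2 H3.3 regions. GSC, a homeobox gene of the organizer, had 1 H3.1 region at 4 h and 1 H3.3 region in control cells. PRRX1, the relative of PRRX2, tied with GSC at a highest region score of 21 and had 1 H3.3 region in control cells and 3 at 24 h.

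Of 20 corepressor and cofactor genes, 10, 4 and 11 had H3.1 regions, and 8, 4 and 17 had H3.3 regions. CTBP2, a corepressor that ZEB proteins recruit, had 18, 2 and 3 H3.1 regions and 3, 0 and 23 H3.3 regions. Its relative CTBP1 had 5, 0 and 4 H3.1 regions and 2, 1 and 2 H3.3 regions. SMARCA4, a chromatin remodelling ATPase, had 11, 3 and 2 H3.1 regions and 2, 1 and 8 H3.3 regions. MTA1, a subunit of the NuRD complex, went another way, with 0, 2 and 2 H3.1 regions and 9, 1 and 1 H3.3 regions. HDAC2, a histone deacetylase, was called only for H3.1 at 24 h, with 2 regions, 1 of which had a fold of 4.92 (2.13 to 13.2).

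Of 22 epithelial genes that these factors repress, 10, 1 and 6 had H3.1 regions and 5, 2 and 18 had H3.3 regions. E-cadherin itself, CDH1, named as the best known target and not by the naming rule, had 1 H3.1 region in each H3.1 list, 0 H3.3 regions in control cells and at 4 h and 3 at 24 h. CDH3, P-cadherin, had 2 H3.1 control regions and 8 H3.3 regions at 24 h. PATJ, a polarity gene, had 0, 0 and 2 H3.1 regions and 1, 0 and 6 H3.3 regions. LLGL2, also a polarity gene, had 4, 0 and 4 H3.1 regions and 3, 0 and 5 H3.3 regions. TJP1, a tight junction scaffold gene, tied with LLGL2 at 5 H3.3 regions at 24 h and had 1 H3.1 region and 1 H3.3 region in control cells. TJP3, a tight junction gene, had 2, 0 and 1 H3.1 regions and 0, 1 and 4 H3.3 regions. PKP3, a desmosome gene, had 0, 0 and 1 H3.1 regions and 2, 0 and 0 H3.3 regions.

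Of 19 mesenchymal genes, 10, 2 and 6 had H3.1 regions and 5, 1 and 15 had H3.3 regions. PDGFRB, a growth factor receptor of mesenchymal cells, had 10, 1 and 0 H3.1 regions and 0, 0 and 11 H3.3 regions. ITGA5, the fibronectin receptor alpha chain, had 2, 0 and 1 H3.1 regions and 0, 1 and 7 H3.3 regions. MMP2, a gelatinase, had 3, 1 and 0 H3.1 regions and 0, 0 and 5 H3.3 regions. The matrix protein genes SPARC and TNC tied with MMP2 at 5 H3.3 regions at 24 h, and each had 2 H3.1 control regions. COL1A1, a fibrillar collagen gene, had 2, 0 and 2 H3.1 regions and 2, 0 and 2 H3.3 regions. WNT5A, a Wnt ligand, had 1, 0 and 2 H3.1 regions and 2, 0 and 1 H3.3 regions.

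**Figure D5:**
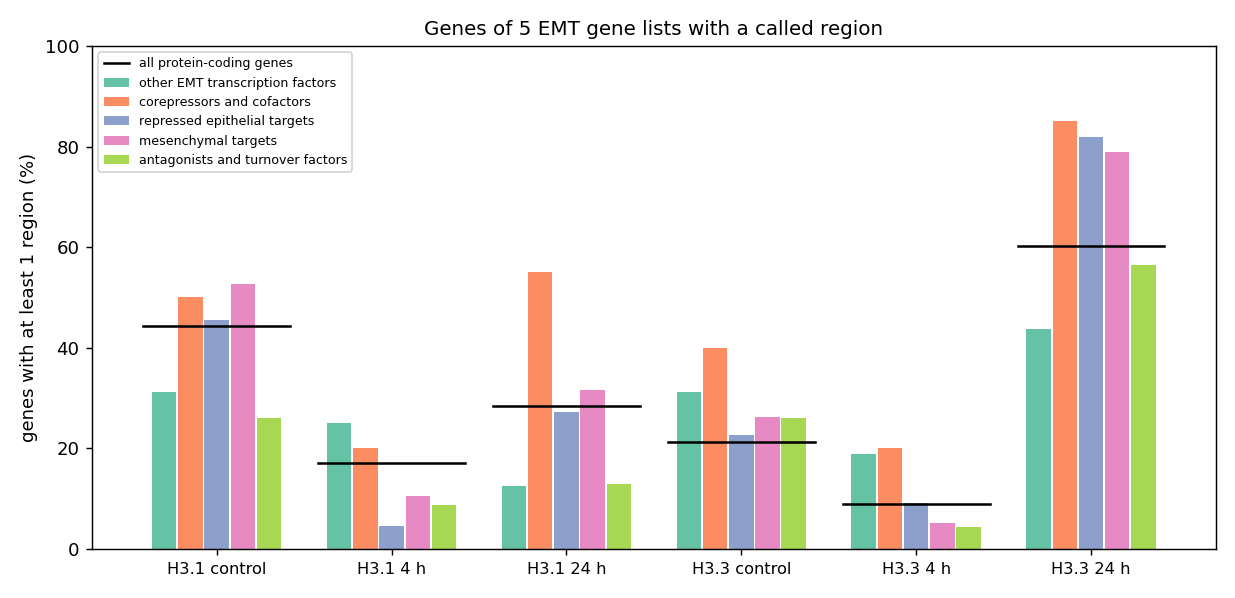
Share of genes, in percent, with at least 1 called region (body or 2 kb either side) for the 5 EMT gene lists in each of the 6 region lists, with the share of all protein-coding genes as a black line. In the H3.3 24 h list the line is at 60.2%. The cofactor, epithelial and mesenchymal lists reach 17 of 20, 18 of 22 and 15 of 19 genes, above it. The other transcription factors reach 7 of 16, below it. The opposing genes reach 13 of 23, but they include microRNA genes, which the line does not cover, so their bar cannot be read against it.

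Of 23 genes that oppose the EMT factors or turn them over, 6, 2 and 3 had H3.1 regions and 6, 1 and 13 had H3.3 regions. GRHL2, an epithelial factor that represses ZEB1, had 5, 1 and 0 H3.1 regions and 0, 0 and 12 H3.3 regions. LATS2, a Hippo pathway kinase, was called in every list, with 3, 1 and 1 H3.1 regions and 1, 1 and 6 H3.3 regions. FBXL14 and FBXO11 encode ubiquitin ligase subunits for SNAI proteins. FBXL14 had 1 H3.1 control region and 4 H3.3 regions at 24 h, and FBXO11 had 1 region in all, for H3.3 in control cells. ELF3, an epithelial ETS factor, had 2 H3.1 control regions and 1 H3.3 region at 24 h.

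The list of opposing genes includes the microRNA genes that act on ZEB and SNAI transcripts. The mature strands from RefSeq (GRCh38.p14) are shown because their shared seeds, bases 2 to 8 in capitals, put the miR-200 microRNAs into 2 groups, and because miR-34a acts on SNAI1.
hsa-miR-200b-3p: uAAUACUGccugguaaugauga
hsa-miR-200c-3p: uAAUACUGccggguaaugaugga
hsa-miR-429: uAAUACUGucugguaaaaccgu
hsa-miR-200a-3p: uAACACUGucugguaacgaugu
hsa-miR-141-3p: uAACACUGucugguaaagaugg
hsa-miR-34a-5p: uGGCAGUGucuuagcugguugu

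MIR200A and MIR429 share the chromosome 1 cluster with MIR200B, and 1 H3.3 region in control cells (1169559 to 1170059) lay 472 bp from MIR429 and 1607 bp from MIR200A. It held 35 ChIP tags against 8 input tags, at a fold of 4.05 (1.85 to 10.1), and it was over 2 kb from MIR200B. MIR200C and MIR141 form the chromosome 12 cluster, and 1 H3.3 region at 24 h (6965087 to 6965738) lay 896 bp from MIR141 and 1321 bp from MIR200C. It held 21 ChIP tags against 2 input tags, at a fold of 8.89 (2.17 to 78.2). MIR34A had 1 H3.3 region in control cells (chromosome 1, 9149919 to 9150419), 1249 bp away, at a fold of 4.26 (1.58 to 14.3). No H3.1 region was called at any of these microRNA genes, and none of either histone at MIR205. Each of these clusters was thus called in 1 list, and each cluster region counts for 2 genes in the numbers above.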

How the data were processed

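Histone H3.1 and H3.3 ChIP-seq region lists were used, 1 per ChIP library, each called by the authors against its own input. HOMER 4.11.1, Bowtie2 2.4.1, cutadapt 3.7 and the hg38 build are named in the submitters' processing notes. Per the file headers, 500 bp peaks were stitched into regions that required a fold of 4 over input and a Poisson p-value over input of 1e-04, with at most 1 tag per bp. The deposited signal is the tag number per 10000000 ChIP tags. The deposited fold is the ratio of ChIP to input tags at equal depth, with 0.5 in place of 0 input tags. The deposited score is the HOMER region score made by the authors.

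Whole ChIP tags were recovered from the deposited signal and header depth (tolerance 0.1, met by 100% of regions), and input depth, about 15800000 to 18100000 tags, from the scaled tag columns. Intervals are exact at 95% (conditional binomial for a fold, Poisson for a count) and cover counting error only. PCR duplicates are not independent molecules. Gene positions and start windows came from RefSeq tables of GRCh38.p14, and positions are on chromosomes 1 to 22 and X. With 1 library per group no test between conditions was made. The 6 genes and the lists were chosen with earlier results of these data known. All 6 genes are named with every region. From each of the 5 other gene lists, the 3 genes with the most regions in 1 list and the 3 with the highest-scoring region are named, and for ZEB1 and ZEB2 the 3 genes of like length with the smallest summed difference in region counts (ties by window length). Ties in the first 2 rules are named too. Alternatives were windows of 0 and 10 kb, a fold of at least 8, the 3000 highest-scoring regions, 50% overlap with the window and other definitions of a shared region. A 10 kb window for shared regions was added after the data were seen. Python 3.11.15, numpy 2.4.6, pandas 2.3.3, scipy 1.17.1 and matplotlib 3.10.9 were used. The overlap counts and the intervals of a fold, at equal depth, were tested on simulated data. The Poisson intervals were not.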

Additional observations from a re-analysis of the deposited data

Results flagged for a closer look

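The number of regions at the 6 genes moved in opposite directions for the 2 histones between control cells and 24 h after D-alanine. The change in H3.1 regions was -3, from 5 to 2, and the change in H3.3 regions was 7, from 1 to 8. At TWIST2 alone the change was -2 for H3.1, from 3 to 1, and 4 for H3.3, from 0 to 4. The difference between the histones was not tested, since each number comes from 1 library. Over the whole lists the numbers moved in the same directions, from 44990 to 13641 H3.1 regions and from 9867 to 81405 H3.3 regions. The changes are thus not particular to the 6 genes and are no result about them.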

How the results depend on the processing

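Of 75 alternative values, 55 stayed within 1.5 times the reported count or, for a density, within its Poisson interval, and 20 moved. The unmoved values include all those of the H3.3 4 h list, which were 0 throughout. Rules that only remove regions could not move a 0, so the tally is no measure of stability. With the gene body alone, the H3.1 control list had 3 regions in place of 5, because those at TWIST1 and at the 3′ end of TWIST2 lie in the flanks. With windows of 10 kb the H3.3 24 h list had 15 regions in place of 8, at 6 genes in place of 4. No density left its interval, which is wide: the H3.1 control density was 0.707 per 100 kb with the gene body alone in place of 1.12, and the H3.3 24 h density 2.76 with 10 kb in place of 1.78. At a fold of at least 8, 2 regions were left for H3.1 control and 5 for H3.3 24 h, and both genes and regions went to 0 for H3.1 4 h, H3.1 24 h and H3.3 control. With each list held to 3000 regions, H3.1 control and H3.1 24 h each had 1 region at 1 gene, and H3.3 control and H3.3 24 h had 0 of both. Requiring 50% of a region inside the window changed no count. With centres within 1 kb as the rule for shared regions, 4 regions were shared in place of 0, and with windows of 10 kb, chosen after seeing the data, 3 were. Each alternative changes which regions are counted by its own construction.

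No paired analysis was possible because each group has 1 ChIP library, and no library was left out for the same reason. Depth limits the folds, since 13 to 52 ChIP tags and 0 to 7 input tags lie behind each region.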
